A study of Mus musculus with 6 samples.

Results

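The genes described here are 36 genes that drive a cell from G2 through mitosis to its division, taken as a list of named genes. Of the 36, 35 had at least 1 probe set annotated to that gene symbol alone on the Affymetrix Mouse430_2 array, out of 18193 genes so represented. The remaining member, Ccnb1 (cyclin B1), had no such probe set and is not analysed here. C2C12 is an established line of mouse myoblasts, dividing muscle precursors that leave the cell cycle and fuse into myotubes when they differentiate. All cells were labelled undifferentiated, were seeded in 100 mm dishes and were kept for 72 h at 37 °C in DMEM to which 4 mM L-glutamine, 1% antibiotics and fetal bovine serum at 10% had been added. The 3 untreated samples had this basal medium, and the 3 pyruvate samples had a medium made from DMEM without sodium pyruvate to which 50 mM sodium pyruvate was added. The labels do not say whether the basal DMEM held pyruvate of its own. Each sample was hybridised to 1 array, and no sample from the start of the incubation, cell count or measure of DNA content was analysed here, so "higher" and "lower" mean pyruvate against untreated cells after the same time.

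Entry into mitosis is triggered by the kinase CDK1 bound to A-type and B-type cyclins, once CDC25 phosphatases have removed the inhibitory phosphates from CDK1. Aurora, Polo-like and checkpoint kinases, kinesin motors and kinetochore proteins then build the spindle and attach chromosomes to it, and the anaphase-promoting complex destroys the cyclins so that the cell can divide. Transcripts of these genes accumulate from late S phase to mitosis and are low in cells that have left the cycle, as myotubes have, so they are commonly read as markers of dividing cells. In bulk RNA of this kind, fewer dividing cells and less transcript per dividing cell cannot be told apart.

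Most G2 and mitosis genes differed little between pyruvate and untreated cells, and those that did were mostly lower with pyruvate. Of the 35 genes, 11 fell, 2 rose and 22 did not pass the threshold (limma, adjusted p below 0.05 over all 22519 probe sets tested; 1 probe set per gene, the brightest). The median log2 change was -0.09, against 0.03 over all 10685 genes tested. Changes smaller than 0.5 in either direction were seen for 34 of the 35 genes and for 9779 of all 10685, so small changes were not particular to the members. The share of members called, 37.1%, was near the 35.1% of all genes tested. By direction, 31.4% of members fell against a background of 14.5% of genes, and 5.71% rose against 20.7%. Of the 7077 genes tested with a mean signal in the range of the members, 18.2% fell and 23.1% rose. All 3 pyruvate arrays lay below all untreated arrays for 13 members and above them for 6. Over all genes tested, 48.6% were separated in this way, 20.0% with pyruvate lower and 28.6% with it higher. The genes that fell were Bub1, Ect2, Kif2c, Cenpa, Mki67, Cenpe, Cdc25b, Ttk, Nusap1, Nek2 and Ccnb2, with log2 changes from -0.54 for Bub1 to -0.16 for Ccnb2. The genes that rose were Nuf2 (0.39) and Cdk1 (0.15). All values are on a log2(signal + 16) scale, which slightly understates changes of dim genes.

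The split of the calls depended on how the arrays were put on a common scale. The counts above keep the authors' scaling. Quantile normalization gave 12 lower and 1 higher and cyclic loess 10 and 1, while centring each array on its median gave 7 lower and 3 higher, with 11% of all genes lower and 22.8% higher under that setting. Under median centring the median change was -0.05 for the members and 0.07 for all genes tested. Centring moves every gene by the same amount, so the difference between these medians could not change, and the members below zero went from 28 to 21 only because some lay near zero.

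Single arrays mattered as well. Among the pyruvate arrays, replicate 3 gave the lowest signal for 23 of the 35 genes, replicate 1 for 9 and replicate 2 for 3. Without pyruvate replicate 3 the counts were 6 lower and 1 higher, with 12.1% of all genes lower and 16.9% higher. Without untreated replicate 3 they were also 6 and 1, with 11.4% and 16.9% of all genes. With all arrays these shares were 14.5% and 20.7%. Both times the lower calls of Ccnb2, Nek2, Ttk, Cenpe and Nusap1 and the higher call of Cdk1 were lost. In that order their changes with all arrays were -0.16, -0.21, -0.24, -0.26, -0.23 and 0.15. They were -0.16, -0.22, -0.24, -0.25, -0.21 and 0.14 without untreated replicate 3. Leaving out pyruvate replicate 3 gave -0.14, -0.23, -0.16, -0.165, -0.19 and 0.15. Each of these fits also had 1 array fewer, and the part of this in the losses was not tested. Bub1, Cdc25b and Ect2 fell in each of 18 alternative fits, and Kif2c, Cenpa and Mki67 in all but 1 (the mean over probe sets for Kif2c and Cenpa, and no variance trend for Mki67). Nuf2 rose in all 18.

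**Figure D1:**
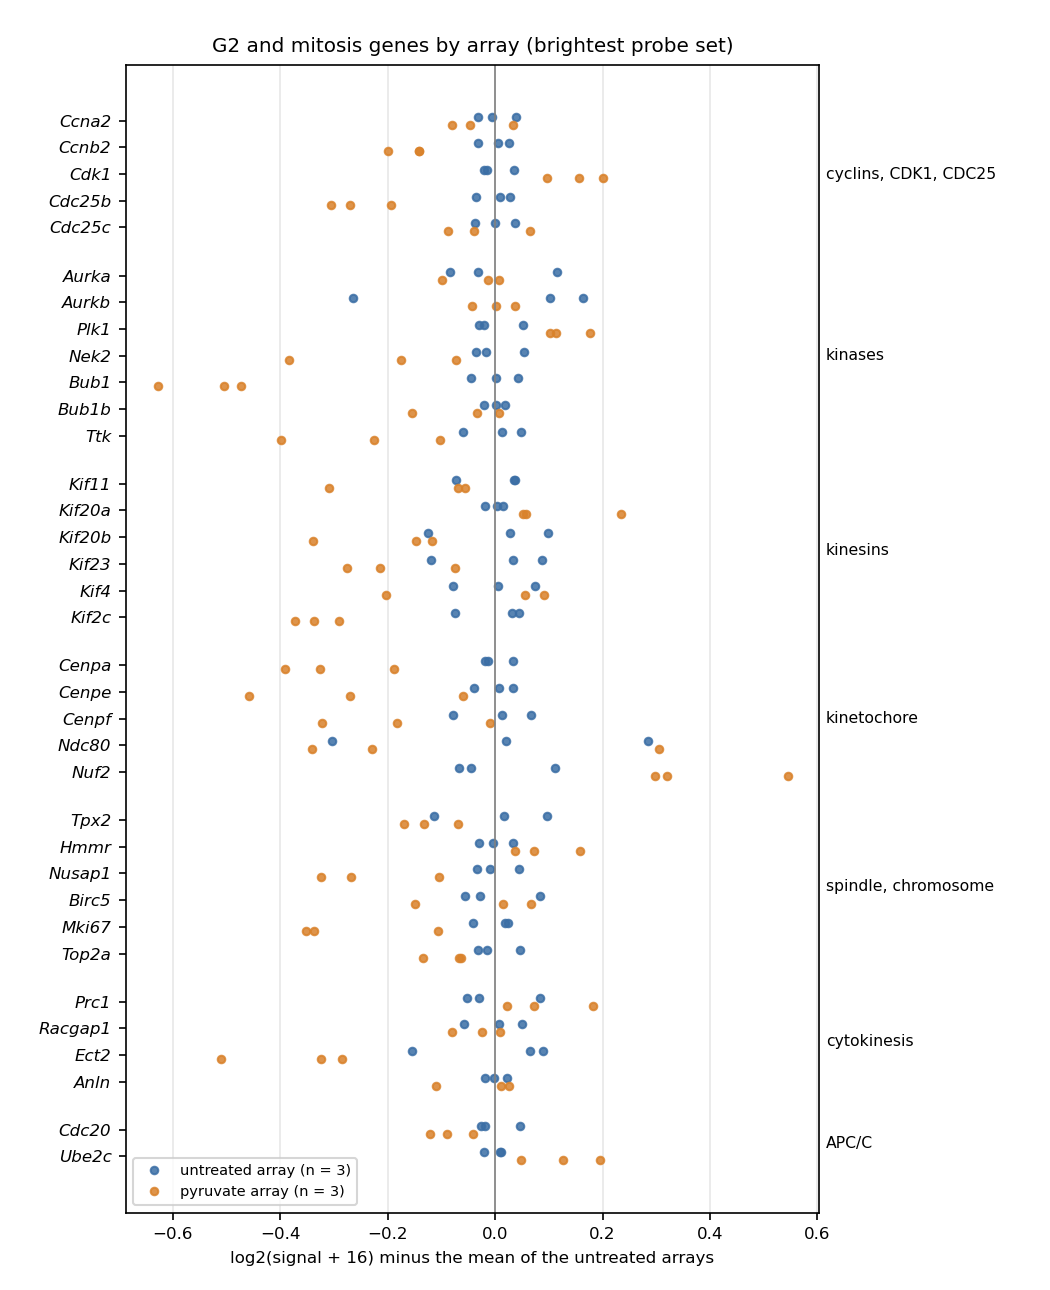
Signal of each of the 35 genes on each array, as log2(signal + 16) minus the mean of the 3 untreated arrays, with genes grouped by role (blue, untreated; orange, pyruvate; 1 point per array). The pyruvate points of Bub1, Ect2, Kif2c and Cdc25b lie left of all untreated points and those of Nuf2 and Cdk1 right of them, while most other genes lie within 0.2 of zero in the mean.

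The promoters of these genes share sequence elements that most other promoters lack, and 4 of them are shown, of 3 genes that fell and of Cdk1, which rose. Mitotic genes are known targets of the DREAM and MYB-MuvB complexes, which bind the cell cycle homology region (CHR), and of NF-Y, which binds CCAAT boxes. RefSeq promoter windows of mouse build GRCm38.p6, each 300 bases from 250 before to 50 after a start site, were found for 31 of the 36 genes (33 windows). The words searched on both strands were TTTGAA and TTCGAA for the CHR and CCAAT for the box. A CHR word stood in 27 of 33 member windows (81.8%), against 19.2% of all 32851 windows. A CCAAT box stood in 26 of 33 (78.8%), against 37.4%, and both together in 23 of 33 (69.7%), against 7.5%. The E2F-like words TTGGCGC and TTCGCGC stood in 18.2% of member windows and 3.9% of all windows. In the sequences below, 5′ to 3′ along the gene, capitals mark the CHR words and CCAAT boxes on either strand.
Cdc25b (chr2:131186698-131186997, plus strand): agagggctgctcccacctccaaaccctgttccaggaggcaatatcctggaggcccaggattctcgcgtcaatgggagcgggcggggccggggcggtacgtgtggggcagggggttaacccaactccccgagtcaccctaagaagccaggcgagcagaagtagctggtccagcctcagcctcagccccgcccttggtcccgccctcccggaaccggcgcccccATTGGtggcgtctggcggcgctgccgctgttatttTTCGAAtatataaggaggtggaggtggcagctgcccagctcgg
Ccnb2 (chr9:70421505-70421804, minus strand): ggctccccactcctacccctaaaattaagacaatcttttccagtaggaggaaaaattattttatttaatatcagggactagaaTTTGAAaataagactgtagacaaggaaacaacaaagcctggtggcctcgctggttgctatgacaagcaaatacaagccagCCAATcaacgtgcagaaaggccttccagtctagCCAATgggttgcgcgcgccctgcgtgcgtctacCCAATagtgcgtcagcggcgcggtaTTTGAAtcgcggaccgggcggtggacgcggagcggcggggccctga
Cdk1 (chr10:69352863-69353162, minus strand): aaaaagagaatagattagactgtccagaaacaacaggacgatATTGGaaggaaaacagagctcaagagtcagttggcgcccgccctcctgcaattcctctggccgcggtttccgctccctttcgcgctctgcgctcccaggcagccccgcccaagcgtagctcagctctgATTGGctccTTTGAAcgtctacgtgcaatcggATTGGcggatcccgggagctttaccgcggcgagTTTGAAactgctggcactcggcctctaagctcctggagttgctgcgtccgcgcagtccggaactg
Bub1 (chr2:127831810-127832109, minus strand): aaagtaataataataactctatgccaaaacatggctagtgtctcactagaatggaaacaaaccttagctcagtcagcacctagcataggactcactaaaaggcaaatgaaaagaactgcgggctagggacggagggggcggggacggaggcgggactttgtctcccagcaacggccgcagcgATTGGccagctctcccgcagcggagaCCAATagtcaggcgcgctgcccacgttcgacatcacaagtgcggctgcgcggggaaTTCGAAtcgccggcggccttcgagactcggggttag

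Matches to the CHR words had a median position of 2 bases after the start site and those to CCAAT boxes one of 68 bases before it. The windows shown were taken only from those holding both elements, so their shared content follows from the choice. They belong to Cdk1, which was higher with pyruvate, and to Cdc25b, Ccnb2 and Bub1, which were lower. Among genes with a window in use, 7 of 11 that fell (63.6%) and 13 of 17 that did not pass (76.5%) had both. Nuf2, Nusap1 and Birc5 had no match to any of these words in their windows. Of 80 windows of other G2 and mitosis genes, 57.5% held a CHR word, 62.5% a CCAAT box and 10.0% an E2F-like word. Of 36 windows of S phase genes, 16.7% held a CHR word, 55.6% a CCAAT box and 33.3% an E2F-like word, so CCAAT boxes and E2F-like words above the share of all windows were not particular to the members. These matches are descriptions of sequence, and binding was not measured.

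**Figure D2:**
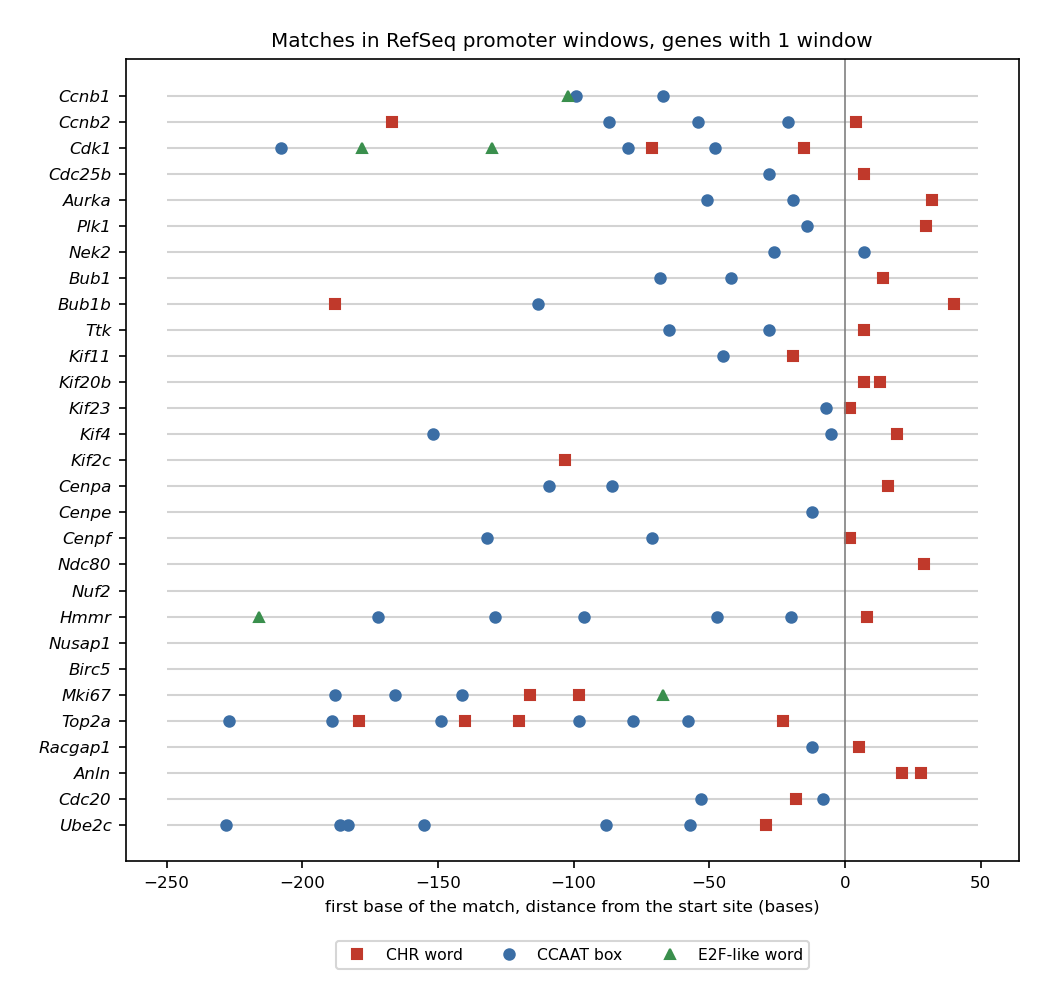
Positions of CHR words (red squares), CCAAT boxes (blue circles) and E2F-like words (green triangles) in the promoter windows of the 29 genes with 1 window in use, by distance in bases of the first matched base from the RefSeq start site. CHR words cluster around the start site and CCAAT boxes before it.

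In the group that forms and activates the mitotic CDK, 2 of 5 genes fell, 1 rose and the median log2 change was -0.03. Cdc25b, the phosphatase that starts CDK1 activation, gave signals of 594, 622 and 614 in untreated cells and 531, 503 and 491 in pyruvate cells. No pyruvate array reached the untreated range, and the log2 change was -0.26 ± 0.05 (SE; adjusted p = 0.0035). Ccnb2 (cyclin B2) went from 884, 849 and 872 to 785, 786 and 754, also without overlap (-0.16 ± 0.05 SE, adjusted p = 0.024). Cdk1, the kinase itself, went the other way, from 2248, 2330 and 2241 to 2432, 2616 and 2534. All 3 pyruvate arrays were higher (0.15 ± 0.05 SE, adjusted p = 0.032), but the change was 0.05 after quantile normalization (adjusted p = 0.28) and 0.03 after cyclic loess (adjusted p = 0.60). Ccna2 (cyclin A2) was at 1301 ± 32.6 and 1273 ± 52.2 (SD, n = 3 arrays each; -0.03, adjusted p = 0.67) and Cdc25c, a phosphatase related to Cdc25b, at 174 ± 4.85 and 171 ± 10.2 (-0.02, adjusted p = 0.86). For neither of them did the arrays separate.

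Of the 7 mitotic and checkpoint kinases 3 fell, with a median of -0.06. Bub1, a kinase of the spindle checkpoint that sits at kinetochores, had the largest change of all 35 genes. Its signals were 796, 846 and 823 in untreated cells and 574, 587 and 526 in pyruvate cells. The lowest untreated array lay well above the highest pyruvate array, and the mean signal was 31.6% lower (log2 change -0.54 ± 0.06 SE, adjusted p = 4.1e-05). Ttk (MPS1), which recruits the checkpoint to unattached kinetochores, went from 292, 316 and 308 to 283, 259 and 228 (-0.24, adjusted p = 0.038). Nek2, which helps separate the centrosomes, went from 642, 603 and 611 to 470, 587 and 546 (-0.21, adjusted p = 0.0497). Nek2 also did not pass after quantile normalization (adjusted p = 0.079). For both genes the groups came close together, with the highest pyruvate array just under the lowest untreated one, and each call was lost in at least 10 of the 18 alternative fits.

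The other 4 kinases did not pass. Bub1b (BUBR1), which holds back the anaphase-promoting complex as part of the checkpoint, was at 496 ± 7.18 and 475 ± 28.4 (-0.06, adjusted p = 0.46). Aurka, the Aurora kinase of the spindle poles, was at 621 ± 46.5 and 605 ± 24.0 (-0.03, adjusted p = 0.71). Aurkb, the Aurora kinase of the centromere and midzone, was at 350 ± 56.2 and 347 ± 10.0 (0.00, adjusted p = 0.99). Plk1, the Polo-like kinase, gave 591, 623 and 588 in untreated and 681, 646 and 651 in pyruvate cells. Its arrays did not overlap, yet the change of 0.13 missed the threshold (adjusted p = 0.074), which it passed when fewer genes were tested under a stricter signal filter (adjusted p = 0.049).

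Among the 6 kinesins, motors that move along or take apart microtubules, 1 fell and the median was -0.17. Kif2c (MCAK), which depolymerises microtubules at centromeres to correct wrong attachments, went from 745, 810 and 803 to 639, 619 and 603. The groups were clearly apart on this probe set (-0.33 ± 0.05 SE, adjusted p = 0.00068). Kif20b, Kif23 and Kif11 were at -0.20, -0.19 and -0.15, none past the threshold (adjusted p = 0.071, 0.076 and 0.17). Kif11 slides spindle poles apart, and Kif23 is the motor of centralspindlin, the complex that marks the division plane. Kif4, a motor on chromosome arms, was at 276 ± 15.5 and 273 ± 31.1 (-0.02, adjusted p = 0.89). Kif20a, which carries Aurora B to the midzone, gave 627, 612 and 622 in untreated and 646, 733 and 643 in pyruvate cells. All 3 pyruvate arrays were higher, but the change of 0.11 did not pass (adjusted p = 0.17).

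At the kinetochore, 2 of 5 genes fell and 1 rose, with a median of -0.17. Cenpa, the histone H3 variant that marks centromeres, went from 1202, 1197 and 1241 to 1063, 922 and 965 (-0.30 ± 0.06 SE, adjusted p = 0.0021). Cenpe, a kinesin that brings chromosomes to the spindle equator, went from 376, 389 and 397 to 371, 318 and 278 (-0.26, adjusted p = 0.041). The pyruvate arrays of Cenpe were spread from just below the untreated range to far below it, and its call was lost in 9 of the 18 alternative fits. Nuf2, which pairs with Ndc80 to grip microtubules, went the other way, from 188, 191 and 215 to 295, 250 and 246. Its groups did not overlap, and the mean signal was 33.4% higher (0.39 ± 0.09 SE, adjusted p = 0.0052). Ndc80, its partner in the same dimer, scattered most of all members, with signals of 154, 97.3 and 126 in untreated and 94.4, 157 and 103 in pyruvate cells (-0.09, 95% interval -0.48 to 0.30, adjusted p = 0.74). Cenpf, a large protein of the outer kinetochore, was at 664 ± 34.3 and 590 ± 66.1 (-0.17, adjusted p = 0.11).

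Of the 6 spindle and chromosome genes 2 fell, and the median was -0.11. Mki67, the coat protein of mitotic chromosomes behind the Ki-67 stain for dividing cells, went from 1291, 1287 and 1233 to 992, 1179 and 1002. The highest pyruvate array stayed under the lowest untreated one (-0.27 ± 0.07 SE, adjusted p = 0.0098). Nusap1, which bundles spindle microtubules, went from 776, 790 and 821 to 658, 739 and 632 (-0.23, adjusted p = 0.014). Top2a, the topoisomerase that untangles sister chromosomes, was at 1508 ± 43.7 and 1418 ± 40.0. It did not pass as scaled by the authors (-0.09, adjusted p = 0.18), but did after quantile normalization (-0.13, adjusted p = 0.044) and cyclic loess (-0.17, adjusted p = 0.013). Tpx2, which activates Aurora A, was at 565 ± 42.3 and 516 ± 18.8 (-0.12, adjusted p = 0.16), and Birc5 (survivin), a partner of Aurora B, at 1503 ± 79.1 and 1481 ± 114 (-0.02, adjusted p = 0.82). Hmmr, a spindle assembly factor, was at 641 ± 14.5 and 683 ± 30.5 (0.09, adjusted p = 0.23).

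Of the 4 cytokinesis genes 1 fell, with a median of -0.03. Ect2, the exchange factor that switches on RhoA to form the contractile ring, went from 834, 820 and 701 to 545, 639 and 622. One untreated array was nearer the pyruvate arrays than the others, but the groups did not overlap (-0.37 ± 0.08 SE, adjusted p = 0.0036). Racgap1, the partner of Kif23 in centralspindlin that recruits Ect2, was at 1172 ± 44.2 and 1145 ± 36.0 (-0.03, adjusted p = 0.67). Prc1, which bundles midzone microtubules, was at 953 ± 49.6 and 1018 ± 59.4 (0.09, adjusted p = 0.26), while Anln (anillin), a scaffold of the ring, gave 1927, 1982 and 1948 in untreated and 1988, 1967 and 1807 in pyruvate cells (-0.02, adjusted p = 0.75). Of the genes of the anaphase-promoting complex, its activator Cdc20 gave 1946, 1859 and 1850 in untreated and 1732, 1769 and 1830 in pyruvate cells (-0.08, adjusted p = 0.20). Cdc20 passed after quantile normalization (-0.14, adjusted p = 0.020) and cyclic loess (-0.18, adjusted p = 0.0072). Ube2c, the ubiquitin-conjugating enzyme of the complex, gave 1944, 1901 and 1942 against 2106, 2210 and 1996 (0.12, adjusted p = 0.083), and passed only after median centring (0.16, adjusted p = 0.035).

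For the 22 genes that did not pass, the 95% intervals of the log2 change lay between -0.48 and 0.30, and the median interval reached 0.13 to either side of its estimate. The arrays therefore bound most of these changes to a small size without showing that they are zero. The spread behind these values was small, with a median coefficient of variation of 3.23% over the untreated and 5.98% over the pyruvate arrays, and up to 22.7% and 28.6% for Ndc80.

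**Figure D3:**
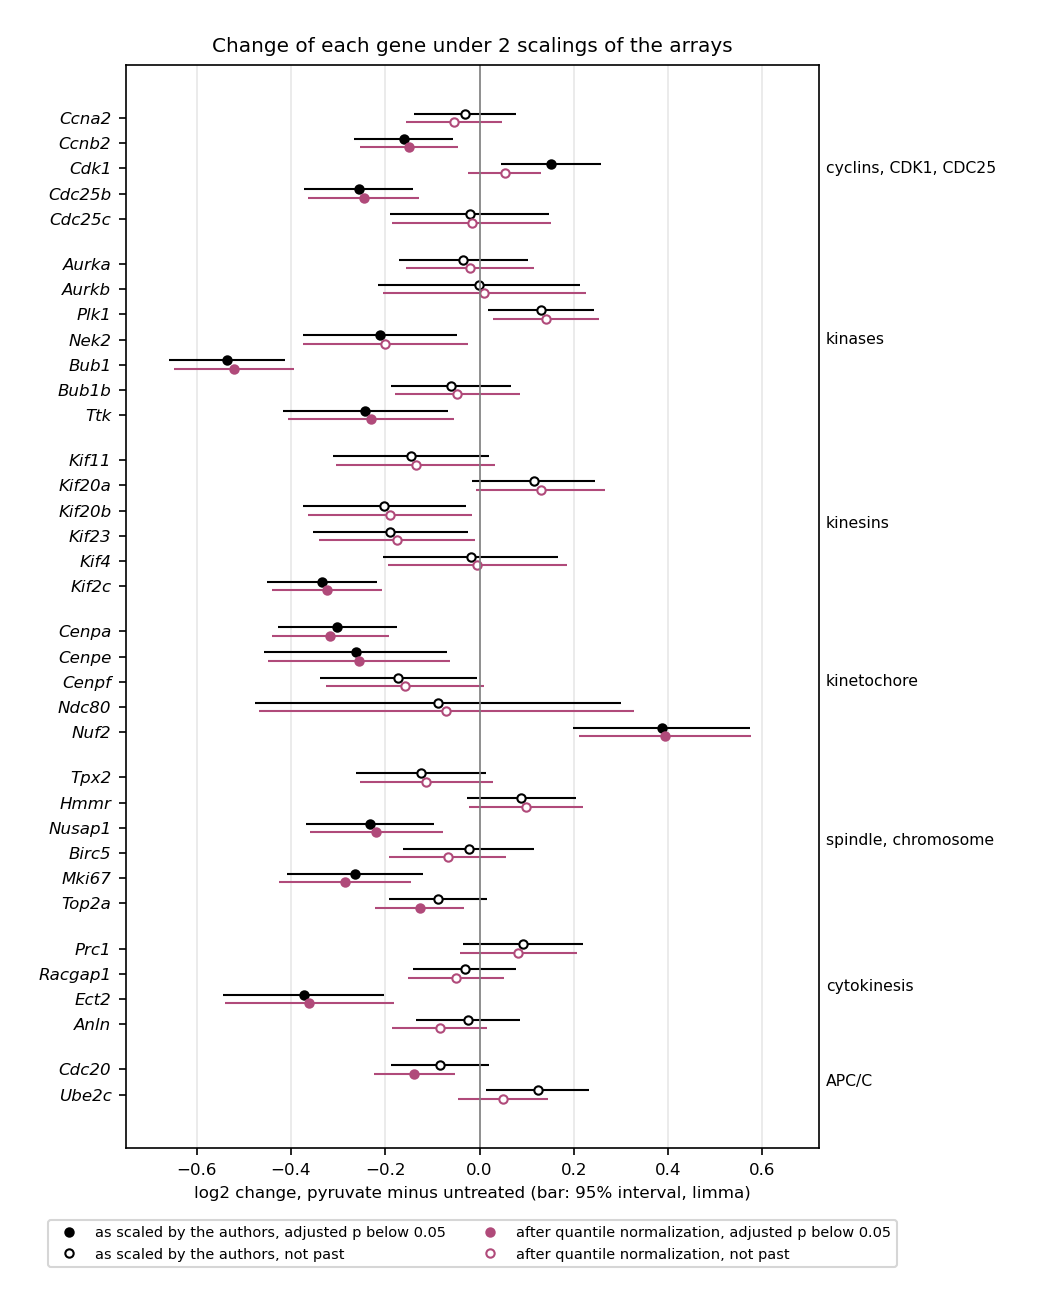
Log2 change of each gene with its 95% interval from limma, as scaled by the authors (black) and after quantile normalization (magenta), with filled points past the adjusted p of 0.05. Bub1 lies farthest left and Nuf2 farthest right under both scalings; Cdk1 and Nek2 are filled only in black, and Top2a and Cdc20 only in magenta.

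Related genes were also set against each other within each array, which removes a shift shared by all genes of an array on the log2 scale. Scaling that varies with signal is not removed. Compared with Bub1b, Bub1 was lower by a further 0.48 on the log2 scale in pyruvate cells (difference -0.48), and its within-array differences of the groups did not overlap. Cdc25b changed by -0.24 relative to Cdc25c and Kif20a by 0.32 relative to Kif20b, again without overlap. Each of these had an exact two-sided permutation p of 0.1, the smallest that 3 against 3 arrays allow, and an adjusted p of 0.17 over the 5 pairs. Aurka against Aurkb differed by -0.03 (exact permutation p = 0.8) and Ndc80 against Nuf2 by -0.48 with overlapping arrays (exact permutation p = 0.3). Each gene was read on its brightest probe set. A second Aurkb probe set, not used in the pair, was at -0.43 (limma adjusted p = 0.0023). No pair could pass 0.05 in this design. Separation of the groups was common in these arrays, at 48.6% of all single genes tested. No such share was worked out for pairs of different genes.

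The probe sets of a gene often gave different sizes of change, but never opposite calls. The 35 genes had 77 probe sets, of which 67 passed the signal filter. Of these, 17 were called lower (25.4%, against 15.9% of all probe sets tested) and 2 higher (2.99%, against 16.3%), and 58 of the 67 had a log2 change below zero. Of the 22 genes with several tested probe sets, 11 had no probe set past the threshold, 1 (Cenpe) had all of them lower and 10 had some past and others not. In 19 of the 22, every tested probe set had the same sign, the exceptions being Tpx2, Hmmr and Prc1.

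In 4 genes the brightest probe set did not pass and a dimmer one was lower. A Kif23 probe set went from 144, 105 and 150 to 82.7, 73.4 and 63.1, the largest change among all 67 (-0.74 ± 0.14 SE, adjusted p = 0.0017). Its groups were far apart, while those of the brightest Kif23 probe set overlapped. For Aurkb a second probe set went from 216, 239 and 250 to 166, 160 and 185 (-0.43, adjusted p = 0.0023), against 0.00 on the brightest, whose untreated replicate 2 was low. Without that array the brightest Aurkb probe set was at -0.13 (limma adjusted p = 0.18). It has the suffix _x_at, as does the brightest of Kif2c below. Both dimmer Kif11 probe sets fell (-0.35 and -0.28, adjusted p = 0.0037 and 0.0089), as did 1 of 4 dimmer Hmmr probe sets (-0.27, adjusted p = 0.013). The dimmer Cenpe probe set fell as well, from 227, 279 and 237 to 180, 135 and 144 (-0.64, adjusted p = 0.00095).

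The reverse was seen for 6 genes whose brightest probe set fell while at least 1 dimmer one did not pass. For Kif2c, whose brightest probe set has the suffix _x_at, given to probe sets that can pick up related sequences, 3 other probe sets were at -0.02, -0.03 and -0.07, and the lower call of Kif2c was lost when its probe sets were averaged (-0.11, adjusted p = 0.16). For Bub1 the dimmer probe set was at 45.0, 30.0 and 41.6 against 26.6, 21.9 and 38.3, near the filter, with the same direction (-0.29, adjusted p = 0.23). The other 4 were Cenpa, Nek2, Nusap1 and Ttk, with dimmer probe sets at -0.17, -0.06, -0.32 and -0.24. Of 32 dimmer probe sets compared with the brightest of the same gene within each array, 9 had differences that did not overlap between the groups, each at the smallest exact permutation p of 0.1 (adjusted p = 0.36). That share, 28.1%, compares with 35.7% of 8932 such pairs over all genes with several tested probe sets, so separated pairs were not more frequent among these genes. Averaging all probe sets of a gene gave 10 lower and 2 higher, and 7 of these 10 were also lower on the brightest probe set. Which transcripts each probe set reads was not analysed here.

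**Figure D4:**
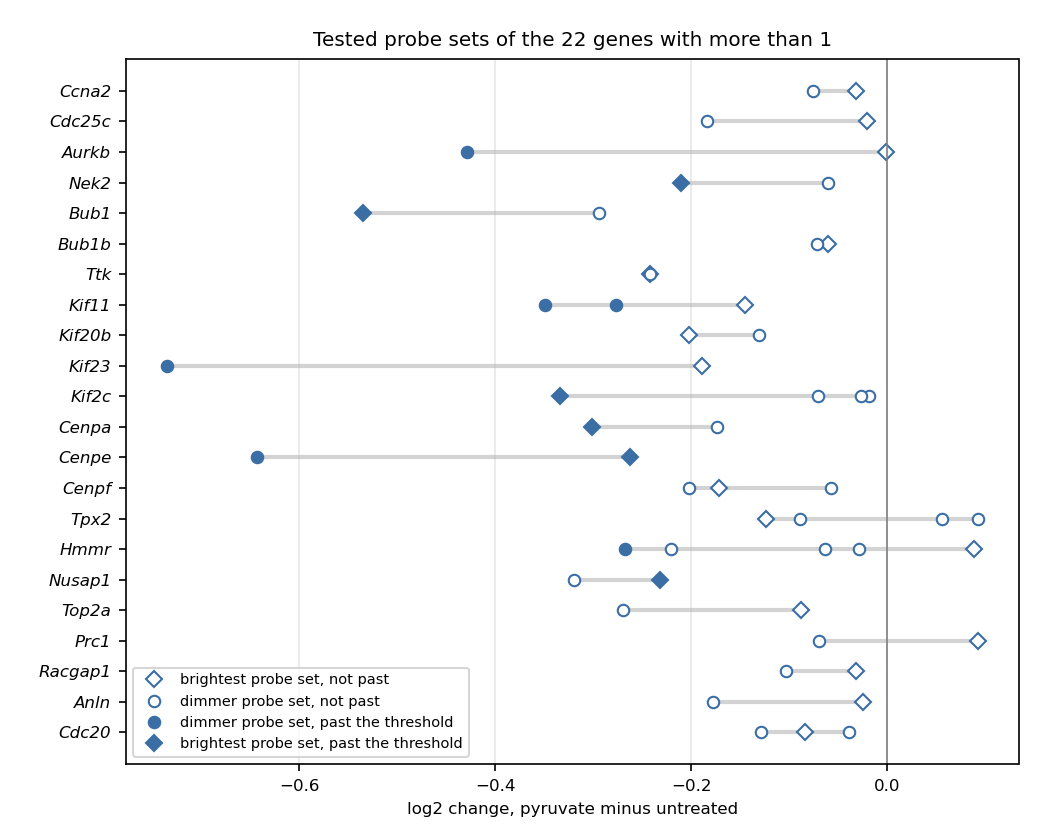
Log2 change of every tested probe set of the 22 genes that have more than 1 (diamond, brightest; circle, dimmer; filled, adjusted p below 0.05). Dimmer probe sets of Kif23, Cenpe and Aurkb lie far to the left of the brightest, and no filled point lies to the right of zero.

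Other genes of the same phase, from a list of 84, moved both ways. Of 80 tested, 30 fell and 8 rose (37.5% and 10.0%), with a median of -0.14. The shares over all genes tested were 14.5% and 20.7%. Largest among those that fell were Depdc1a (-0.88), a mitotic regulator, the chromokinesin Kif22 (-0.73), from 1003 ± 66.8 to 596 ± 25.4, the centriole factor Stil (-0.56) and shugoshin Sgo1 (-0.50), which guards centromeric cohesion. The Kif22 values come from the brightest of its 3 probe sets, which has the suffix _x_at. Its other probe sets were not compared with it. Psrc1 (1.14), a spindle protein, rose most, from 101 ± 3.16 to 241 ± 7.10, followed by the microtubule-associated Ckap2 (0.56), Gtse1 (0.53) and the kinesin Kifc1 (0.32). Psrc1 was the only 1 of these 80 genes to change by at least 1 on the log2 scale. Under median centring, 19 of these genes were lower.

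Of the 14 listed regulators of mitotic transcription and of the CDKs, 13 were tested and 3 fell. Of these 13, 23.1% fell and 0% rose, against 14.5% and 20.7% of all genes tested. Cdkn1b (p27), an inhibitor of CDKs, fell from 469 to 298 (-0.63 ± 0.07 SE, adjusted p = 8.3e-05), and Lin54 and Mybl2, subunits of the complexes that bind the CHR, fell by 0.33 and 0.30 (adjusted p = 0.014 and 0.048). Foxm1, the forkhead activator of G2 genes, was at 275 and 309 (0.16, adjusted p = 0.089). Rbl1 (-0.08), Rbl2 (0.10), Fzr1 (0.00) and Cdkn1a (p21; 0.01, adjusted p = 0.93) did not pass, and Cdkn1c lay below the signal filter at 4.73 ± 2.32 and 2.03 ± 1.40. Among 38 S phase genes tested, 10 fell and 7 rose, with a median of -0.02. These were 26.3% and 18.4%, against 14.5% and 20.7% of all genes tested. Those that fell most were Ccne2 (-0.71), Prim2 (-0.60), Dut (-0.51) and Pola1 (-0.48), and those that rose most were Tk1 (0.59), Pcna (0.30), Rrm2 (0.28) and Mcm6 (0.26). Whether these lists differ from the 35 genes in their change was not tested.

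Myotube markers moved far more than the mitotic genes in the same arrays. Of 19 tested, 18 fell, with a median of -2.17, and the summed signal of all 20 matched markers was 12063 to 12535 in untreated and 2158 to 2610 in pyruvate cells. Myog (myogenin), which starts terminal differentiation, was at 1738 ± 44.1 in untreated and 212 ± 40.1 in pyruvate cells, so the untreated cells carried differentiation transcripts beside mitotic ones. Myl1, a myosin light chain and the most abundant of these markers, fell from 2775 ± 100.03 to 823 ± 83.6 (-1.74). Summed over 7 myoblast markers the signal was 8080 to 8368 and 7267 to 7504, led by Cdh15, Des and Itga7. Of the 6 tested, 3 fell, Myf5 (-0.65), Cdh15 (-0.39) and Itga7 (-0.21), and 2 rose, Myod1 (0.26) and Ncam1 (0.17), while Des was at -0.08 (adjusted p = 0.21) and Pax7 lay below the signal filter in both groups. Macrophage, adipocyte and endothelial markers were dim, with 4 of 6, 2 of 4 and 3 of 4 below the filter. Summed signals were 144 to 167 and 157 to 211 for macrophage markers, 132 to 176 and 185 to 243 for adipocyte markers, and 65.8 to 87.5 and 45.0 to 56.1 for endothelial markers. The most abundant were Csf1r (means of 56.1 and 68.2), Pparg (83.9 and 102.5) and Kdr. Of these lists, Cebpa rose from a mean of 36.6 to 78.3 (0.84) and Kdr fell from 40.4 to 25.8 (-0.43). The part of a changed share of differentiating cells in the values of the mitotic genes was not tested.

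**Figure D5:**
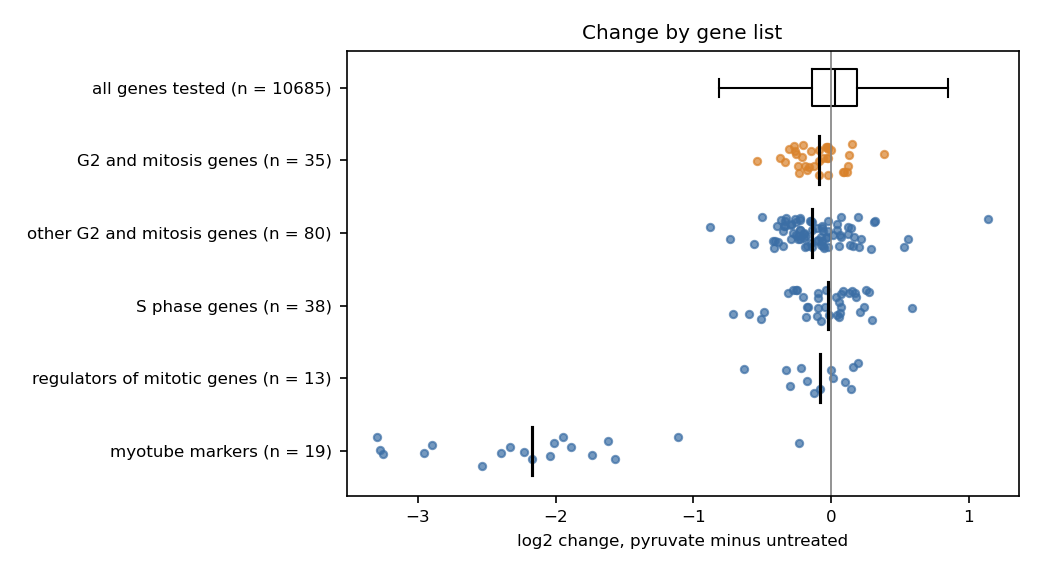
Log2 change by gene list, with 1 point per gene tested and a black line at the median; for all genes tested the box spans the quartiles and the whiskers the 1st to 99th percentile. The G2 and mitosis genes (orange) lie between -0.54 and 0.39, within the whiskers of all genes, while 18 of 19 myotube markers lie below -1.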

How the data were processed

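RNA of 3 untreated and 3 pyruvate samples was profiled on 1 array each. The authors deposited 1 intensity per probe set and array on a linear scale, computed with MAS5 according to the submitters' processing notes. The authors had scaled every array to the same trimmed mean (150.0 over the middle of the signals), which was kept. The labels give no version or settings of MAS5. Median signals were 30.3 to 33.0, array correlations 0.985 to 0.991 within and 0.979 to 0.983 between groups (across probe sets, which are not independent). The number of arrays limits the precision.

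Probe sets were named through the platform annotation, and of 45037 non-control probe sets 34945 carried 1 symbol. The brightest probe set over the 6 arrays stood for its gene. Values were log2(signal + 16); probe sets with a mean of at least 5.53 (signal 30.3, the median) were tested with limma 3.58.1 in R 4.3.3 (lmFit, eBayes with trend, two-sided, all 6 arrays, no block), with Benjamini-Hochberg adjustment. Unless stated, adjusted p-values are from this model, and SD are over 3 arrays. The labels do not say that samples were separate cultures, so p-values measure the spread between samples, which may be technical.

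Members and lists were chosen with earlier results of these data known. Of other listed genes, the text names the 4 highest and 4 lowest changes past the threshold without overlap, and a fixed set of regulators plus any other that passed, and, of markers, Myog and the most abundant of each list. Called markers of the myoblast, adipocyte and endothelial lists were named after their values were seen. Alternatives were other pseudocounts (1 and 64), filters, scalings, variance models, array weights, a replicate block, probe set averaging and leaving out arrays. Figures were drawn with matplotlib 3.10.9.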

Additional observations from a re-analysis of the deposited data

How the results depend on the processing

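Over 18 alternative fits no called member changed sign, and the median change of the 35 genes stayed between -0.13 and -0.05, within 1 SD between arrays (0.044) of the reported -0.09. The number of members lower was 7 with median centring and 5 without the variance trend, against 11. The number higher was 1 with no signal filter, quantile normalization, cyclic loess or no variance trend, against 2. Requiring a log2 change of at least 1 left 0 members lower and 0 higher, and of the other G2 and mitosis genes 0 lower and 1 higher, with 0 and 0 S phase genes and 0 regulators lower. Other G2 and mitosis genes numbered 19 lower with median centring (30 reported), and 5 higher without the variance trend or with averaged probe sets (8 reported). S phase genes numbered 6 lower with median centring or no variance trend (10 reported), and 4 higher with cyclic loess or no variance trend and 3 with averaged probe sets (7 reported). Leaving out 1 array gave 6 to 12 members lower and 1 to 2 higher, 20 to 26 other G2 and mitosis genes lower and 4 to 7 higher, 7 to 9 S phase genes lower and 4 to 9 higher, and 1 to 2 regulators lower. The low ends came without untreated replicate 3 or pyruvate replicate 3 for members lower (6 each), without untreated replicate 3 (4) or 1 (5) for the other G2 and mitosis genes that were higher without untreated replicate 3 for the regulators (1), and without untreated replicate 1 or 2 for S phase genes higher (4 each). The causes were not tested.

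Replicate numbers are shared between the groups, but same-numbered arrays did not deviate together (r = -0.009, 0.014 and 0.021). These values show no sign of pairing, but cannot tell whether same-numbered samples were handled together. With the replicate number as a block, 10 members were lower and 2 higher, and Nek2 no longer passed (-0.21, adjusted p = 0.062). The within-array pair differences kept their direction after quantile normalization. Signals near the filter, as for the dimmer Bub1 probe set, limit what can be resolved.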
